A study of Mus musculus with 9 samples.

Results

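The cells described here were the MHC class II-high antigen-presenting cells of mouse brains with and without an EP ZFTA-RELA tumor, a childhood ependymoma model carried by a gene fusion. In each of 9 droplet libraries the 10000 barcodes with most unique molecular identifiers (UMIs, one per captured RNA molecule) were considered and kept when they held 200 to 6000 genes and under 15% mitochondrial UMIs. The third tumor library held only 9001 barcodes, and all of these were considered. A kept barcode was a member when it had at least 1 UMI of each of Cd74, H2-Aa, H2-Ab1 and H2-Eb1 and at least 10 UMIs of the 4 genes together. This chose 278 of 64617 kept barcodes, 60 in controls and 218 in tumors. Members with 2 or more of Cd79a, Cd79b, Ms4a1, Ighm and Ly6d numbered 45 and are called B-lineage members. The other 233 members are called myeloid and dendritic members, of which 60 carried exactly 1 B gene. The counts of these 4 genes and of the 5 B genes chose and divided the members, so their levels and the members' numbers are given as descriptions without a test.

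The study asked how these tumors shape immunity at the borders of the brain, and its single-cell libraries from brain were used here. The 4 control mice were NestinCreERT2;TdT and the 5 tumor mice NestinCreERT2;Fus1, all 6 to 8 weeks old, with tumors at endpoint. Both groups shared a tamoxifen-dependent Cre recombinase driven by the Nestin promoter, which is active in neural stem and progenitor cells, and the fusion was expressed from a construct with its own Nestin promoter at the Rosa26 locus. Dissociated tissue had been freed of myelin on Percoll and sorted with DAPI and an antibody to Ter119, a red cell marker. The study's single-cell methods also name an antibody to CD45, a marker of blood cells, which the labels of these libraries do not. Of the 64617 kept barcodes, 32175 carried 3 or more neuron genes, with members and barcodes with 3 or more myeloid genes left out of this count. Each library is called by its group and replicate number, such as tumor 4. The study states that its measurements came from distinct samples, and the labels do not tie each library to 1 animal.

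MHC class II molecules carry peptides from engulfed proteins to the cell surface, where CD4+ T cells read them. The chains are held by the invariant chain Cd74, their peptides are cut by lysosomal proteases and exchanged by the H2-DM and H2-O proteins, and the genes are switched on together by the coactivator Ciita. Dendritic cells and B cells carry the machinery constantly. Macrophages and microglia, the resident phagocytes of the brain, carry little of it at rest and more when activated.

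Ciita binds no DNA itself and is held at MHC-II promoters by factors on an X box and a Y box, so the promoters of 4 genes of the pathway are shown, H2-Aa and H2-Eb1 of the membership rule and H2-Oa and H2-Ob, whose products temper peptide exchange. Each sequence is the 130 bases before the RefSeq start of the gene on GRCm38.p6, read 5 prime to 3 prime on the strand of the gene. Capitals mark ATTGG or CCAAT, the core of a Y box, and GCAAC or GTTGC, letters of the X box. They lie at chr17:34287824-34287953 on the minus strand for H2-Aa, and on the plus strand at chr17:34305737-34305866 for H2-Eb1, chr17:34092249-34092378 for H2-Oa and chr17:34238775-34238904 for H2-Ob.
H2-Aa: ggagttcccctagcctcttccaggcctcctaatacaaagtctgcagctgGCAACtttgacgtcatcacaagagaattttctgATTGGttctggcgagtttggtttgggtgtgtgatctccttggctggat
H2-Eb1: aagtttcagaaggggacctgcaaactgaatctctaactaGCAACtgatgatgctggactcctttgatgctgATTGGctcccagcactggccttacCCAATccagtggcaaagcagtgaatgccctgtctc
H2-Oa: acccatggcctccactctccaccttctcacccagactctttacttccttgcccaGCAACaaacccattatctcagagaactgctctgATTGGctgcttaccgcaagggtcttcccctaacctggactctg
H2-Ob: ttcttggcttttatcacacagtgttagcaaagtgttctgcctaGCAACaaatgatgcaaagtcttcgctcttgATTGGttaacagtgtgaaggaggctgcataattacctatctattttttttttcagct
The distance from GCAAC to ATTGG was 33 bases in H2-Aa, 32 in H2-Eb1, 33 in H2-Oa and 30 in H2-Ob. Either orientation of the Y box letters occurred in 22.4% and of the X box letters in 17.3% of 32851 promoter windows of this length. The pair in this order at 30 to 33 bases, a range read from these 4 genes, occurred in 34 windows, 0.103%, these 4 included. Of 18 genes of MHC-II presentation looked for, 13 had a promoter in the table used, of which 9 held the Y box letters, 8 the X box letters and only the 4 printed the pair. H2-DMa, H2-DMb1 and H2-DMb2 did not hold the pair in this window. These matches are descriptions of the letters and no evidence of binding.

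By the rule, the 4 genes that chose the members were far above every other cell set of the same libraries. Summed over the myeloid and dendritic members of a mouse and scaled to counts per 1000000 UMIs (CPM), they reached 21619, 7989, 21267 and 19929 CPM in controls 1 to 4 and 22493, 26502, 22271, 14825 and 30924 CPM in tumors 1 to 5. Control 2 was the lowest of the 9 and tumor 5 the highest, and the groups overlapped. Other myeloid cells, which were kept barcodes outside the members with at least 3 of Tyrobp, Fcer1g, Csf1r, C1qa, C1qb and Ctss, held 30.2 to 102 CPM in controls and 54.2 to 194 CPM in tumors. Barcodes with neuron genes held 1.75 to 26.1 CPM, and the 3000 barcodes with fewest UMIs of a library, which stand for free RNA, held 5.7 to 119 CPM. That stand-in is rough, because every deposited barcode held at least 468 UMIs. In tumor 3, with 9001 barcodes, the 3000 were among those considered for membership. The median myeloid or dendritic member held 37, 24, 61 and 65.5 UMIs of the 4 genes in the controls and 24, 101, 128.5, 43 and 66.5 in the tumors. Near the threshold, 17 members held 10 to 12 UMIs and 15 barcodes with all 4 genes held 7 to 9. Barcodes with neuron genes held 3 or more of Snap25, Syt1, Stmn2, Rbfox3, Meg3 and Nrgn. Members and barcodes with 3 or more of the myeloid genes above were left out of that set. Outside the members, all 4 MHC-II genes were detected in 9 barcodes with 3 or more neuron genes. Leaving out the members keeps that count low.

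**Figure D1:**
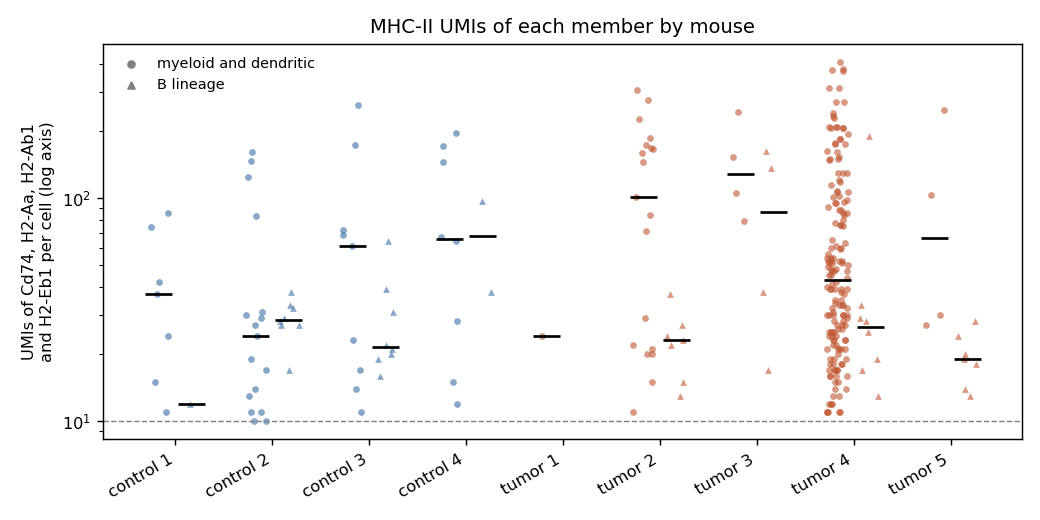
Summed UMIs of Cd74, H2-Aa, H2-Ab1 and H2-Eb1 (vertical log axis) in each member of each mouse, circles for myeloid and dendritic members and triangles of the B lineage, with black bars at the medians and a dashed line at the threshold of 10 UMIs. Tumor 4 holds 172 of the 278 points and tumor 1 a single one.

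One tumor gave most members. The controls held 8, 25, 17 and 10 members and the tumors 1, 26, 8, 172 and 11. As a share of kept barcodes these were 0.0984%, 0.337%, 0.265% and 0.140% in controls (0.210% ± 0.110, SD, n = 4) and 0.0351%, 0.437%, 0.119%, 1.72% and 0.110% in tumors (0.485% ± 0.708, SD, n = 5). Tumor 4 stood above the other 8 mice, with an exact 95% interval of 1.48% to 2.00% that covers counting error only. Without it the tumor mean was 0.175% ± 0.178 (SD, n = 4), below that of the controls. Of themselves and the other myeloid cells together, the myeloid and dendritic members were 2.14%, 2.80%, 2.27% and 1.67% in controls and 0.202%, 0.887%, 0.206%, 5.20% and 0.266% in tumors. Members needed no myeloid gene to be counted here, unlike the other myeloid cells. Tumors 1, 2, 3 and 5 lay below all 4 controls and tumor 4 above them. The tumors held 493 to 2988 other myeloid cells and the controls 320 to 590.

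The libraries differed in depth and in free RNA. Deposited matrices held 14967680 to 178086164 UMIs, controls more than tumors, and the median myeloid or dendritic member held 1067 UMIs in tumor 1 and 1884 to 6497 in the other mice. Barcodes with the highest scores from Scrublet, a doublet caller, were flagged up to a number set by library size. These were 799 of 9994 kept barcodes in tumor 4 and 799 of 9993 in tumor 5. Among the members, 15 of 172 in tumor 4 and 1 of 11 in tumor 5 were flagged, close to that share. They were kept except where stated. Of 268 members with a usable barcode name, 4 shared that name with a kept barcode of another library (1.49%, against 1.42% of all kept barcodes), and none was a member in both. Neuron RNA ran through the controls: all 41 of their myeloid and dendritic members carried 2 or more of 6 neuron genes, at a summed 4314 to 7705 CPM, against 0 to 615 CPM in tumors. The red cell list reached 47973 CPM in the other myeloid cells of tumor 3 and 2385 CPM in its members.

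Microglia genes and dendritic genes were both found among these members. Of the 233 myeloid and dendritic members, 149 carried 2 or more of 10 microglia genes such as Tmem119 and P2ry12, 15 of 41 in controls and 134 of 192 in tumors. By mouse these were 0 of 7, 9 of 17, 3 of 9 and 3 of 8 in controls and 0 of 1, 6 of 19, 3 of 4, 122 of 164 and 3 of 4 in tumors, so tumor 4 set the pooled tumor share. Border macrophage genes such as Mrc1 and Pf4, which mark phagocytes of the meninges and vessels, were carried by 90. Genes of dendritic cells in general (Flt3, Zbtb46, Plbd1, Napsa, Itgax, Ciita) were carried by 58, monocyte genes by 54 and genes of conventional type 2 dendritic cells (cDC2) by 40. The list of type 1 dendritic cells (cDC1) was carried by 89, and by 6.44% to 17.4% of other myeloid cells, and its Irf8 is also a gene of microglia. Both the microglia and the dendritic list were carried by 23 members, the microglia list without the dendritic by 126, the dendritic without the microglia by 35, and 29 carried neither these lists nor those of border macrophages or monocytes. No myeloid or dendritic member carried 2 genes of T and NK cells or of B precursors. The 29 members without the 4 lists were 3, 4, 4 and 3 in controls 1 to 4 and 1, 4, 1, 9 and 0 in tumors 1 to 5. The set chosen by the rule thus held cells with markers of microglia, macrophages, monocytes and dendritic cells, and no single cell type. No list of connective tissue cells was used, although Prg4 and Mgp, named below, were high in members of control 2.

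No marker list differed between groups past the threshold. Among mice with at least 5 myeloid and dendritic members (4 controls, tumors 2 and 4), the microglia list was carried by 30.9% ± 22.3 (SD, n = 4) in controls and 53.0% ± 30.3 (SD, n = 2) in tumors (two-sided exact permutation test, p = 0.467). The monocyte list was carried by 7.98% ± 9.32 and 31.2% ± 7.94, and the dendritic list by 14.9% ± 11.7 and 26.0% ± 0.499 (p = 0.133 each, exact permutation test, adjusted p = 0.311). The cDC2 list was carried by 32.0% ± 11.6 in controls and 17.2% ± 5.40 in tumors (exact permutation p = 0.2) and the plasmacytoid list by 27.8% and 16.4% (p = 0.267, exact permutation). For the migratory list tumors minus controls was -5.07 percentage points (exact permutation p = 0.6). Genes of cycling cells were carried by 4.25% ± 5.35 and 20.9% ± 0.227, with tumors 2 and 4 above every control (exact permutation p = 0.0667, adjusted p = 0.2). The difference reversed when 1 gene was asked for, and with tumors 3 and 5 added the tumors ran from 0% to 50% (exact permutation p = 0.143, adjusted p = 0.429). With 15 splits of 6 mice 0.0667 is the smallest p this design allows, so no list of 21 could pass, and 0 were under 0.05 before adjustment. With tumors 3 and 5 added, the dendritic list was carried by 14.9% in controls and 38.0% in tumors and the neuron list by 100% and 29.2% (exact permutation p = 0.0286 each, adjusted p = 0.3). The neuron list ran the other way, 100% in every control against 33.4% ± 42.1 in tumors, and tumor cell genes such as Igf2 and H19 were carried by 3.13% ± 6.25 in controls and 65.1% ± 2.77 in tumors (exact permutation p = 0.0667 each, adjusted p = 0.2). For the tumor cell list, adding tumors 3 and 5 gave 38.8% ± 32.1 in tumors, from 0% to 67.1% (exact permutation p = 0.143, adjusted p = 0.429).

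**Figure D2:**
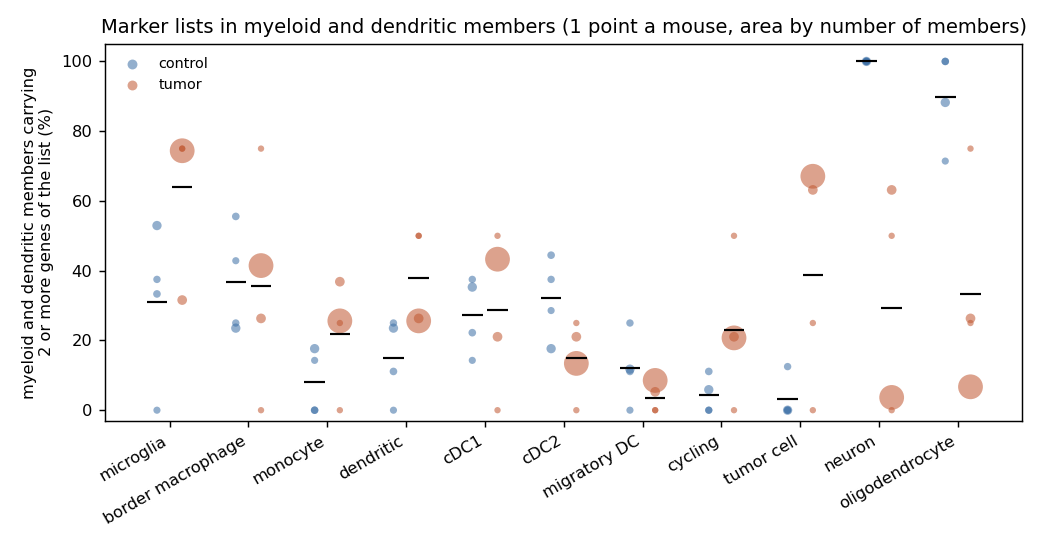
Share of myeloid and dendritic members (vertical axis, %) that carried 2 or more genes of each marker list, 1 circle a mouse with at least 4 such members, circle area by number of members, and black bars at the mean of the mice. The 4 controls sit at 100% for neuron genes, and tumors 2 and 4 sit at 63.2% and 67.1% for tumor cell genes.

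Clustering of the 278 members, with the rule's genes left out, gave 10 clusters and drew them apart by group, which is a description because the same cells were clustered. Of the 60 control members, 43 fell in 1 cluster led by Snhg11, Meg3 and Ttr, RNAs of neurons and choroid plexus, which stayed unnamed, and 17 in a B cell-like cluster. Tumor members fell in the other 8, apart from 2 cells. Microglia-like clusters held 46 cells led by Ifit2 and Tmem119, and 24 cells led by Hspa1a, Ccl3, Ccl4 and Cxcl2, genes of heat shock and of inflammatory chemokines. In a cDC1-like cluster of 21 cells, Xcr1, the receptor by which cDC1 meet CD8+ T cells, and Itgae were each detected in 47.6% of cells. Cell cycle genes (Birc5, Ccnb2, Ube2c) led this cluster. Of its 21 cells 16 carried 2 or more cDC1 genes, 10 microglia genes and 9 monocyte genes, and 18 came from tumor 4. A cluster of 13 cells led by Ccl5, Ccr7 and Ccl17 was named migratory dendritic cell-like from these markers, but the name rests on 4 cells: 4 of the 13 carried 2 genes of that list, 6 carried 2 monocyte genes and 5 each carried 2 microglia or cDC1 genes. A cluster of 33 cells led by Ifitm1, S100a4 and Mgl2 carried both monocyte genes (Ccr2, Plac8) and dendritic genes (Plbd1, Napsa) and stayed unnamed, 21 of its cells from tumor 4 and 10 from tumor 2. A cluster of 30 cells led by Tnnt3, Ccn1 and Cldn10 carried astrocyte and tumor cell genes beside the rule's genes, with a median of 8849 UMIs, and 13 of its cells had high doublet scores. A cluster of 34 cells led by Rnase2a, Cox6a2 and Klf2 came from tumor 4 alone, and 33 of them carried 2 or more microglia genes.

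**Figure D3:**
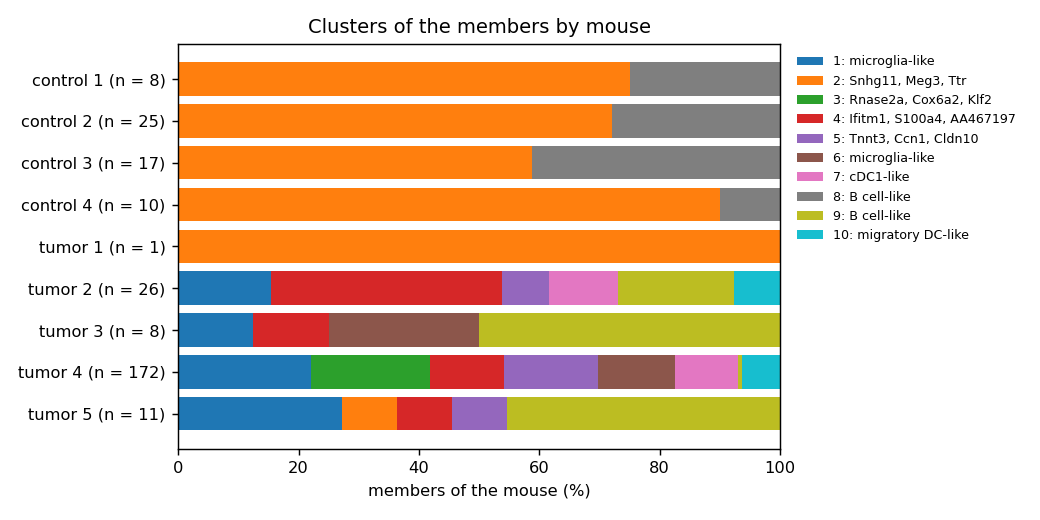
Share of each mouse's members (horizontal axis, %) in each of 10 clusters, named by marker lists or by leading genes. Control bars hold only clusters 2 and 8, and tumor 4 is spread over 8 clusters.

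In tumors the members stood out from other myeloid cells of the same mice by RNA of the regulator and peptide loading genes of MHC-II. The regulator also switches on the genes of the rule, and how far this rise follows from the choice of members was not tested. The comparison used tumors 2 and 4, the tumors with at least 10 such members, in 1 fit with control 2. Members are the myeloid and dendritic ones in this and the following comparisons, which left out the rule's genes. Comparisons with other myeloid cells also left out the genes that chose those cells. The comparison of members between groups kept these, Ctss among them. Of 14030 genes tested, 215 were higher in members (1.53%) and 79 lower (0.563%), 2.1% in all. Of the MHC-II loading and control list 7 of 13 tested genes rose, and the list's median log2 difference was 1.12 against -0.18 over all genes. Ciita held 60.3 and 44.7 CPM in the members of tumors 2 and 4, from 5 and 38 UMIs, against 0.142 and 0.568 CPM in their other myeloid cells. Its log2 difference was 6.79 ± 0.70 (SE, adjusted p = 2.32e-19, edgeR). In the controls it held 224, 42, 91.1 and 85.7 CPM in members, from 3, 4, 3 and 3 UMIs, and 0 to 2.64 CPM in other myeloid cells. Members were higher in all 4 controls and in tumors 2, 3 and 4, and held no UMI in tumors 1 and 5.

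The genes of the DM and O proteins followed in tumors. H2-DMb1, a chain of the peptide exchanger, held 495 and 320.2 CPM in members and 46.9 and 33.9 CPM in other myeloid cells of tumors 2 and 4 (log2 difference 3.39 ± 0.37, adjusted p = 8.74e-17). Its partner H2-DMa held 664 and 573 CPM against 195 and 174 CPM (1.82 ± 0.34, adjusted p = 1.85e-05). H2-DMb2 rose by 3.39 ± 0.63, H2-Ob by 2.97 and H2-Oa by 2.86 on the log2 scale, and Ifi30, a lysosomal reductase that opens antigens, by 1.12. H2-Oa and H2-Ob are the genes whose promoters are printed above. Rfxank (1.07), Rfxap (-0.32) and Rfx5 (-0.52), subunits of the X box factor, and the proteases Ctsb (-0.24) and Lgmn (-0.14) did not pass. With DESeq2 the call held for 3 of the 7, and H2-DMb2, H2-Oa, H2-Ob and Ifi30 did not pass.

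Dendritic and monocyte genes rose in the tumor members, and microglia genes did not pass. Of the dendritic list 5 of 6 rose, of cDC1 6 of 8, of cDC2 4 of 6, of migratory dendritic cells 3 of 7 and of monocytes 5 of 8, and DESeq2 called 4, 4, 4, 2 and 3 of these. Napsa, a protease of antigen-presenting cells, held 229 and 71.8 CPM in members of tumors 2 and 4 against 3.4 and 1.32 CPM in other myeloid cells (log2 difference 5.96 ± 0.39, adjusted p = 6.79e-47). Plbd1, a lysosomal lipase, held 289.6 and 193 CPM against 6.38 and 7.38 CPM (5.11 ± 0.42, adjusted p = 3.15e-31). Both genes were far higher in members of both tumors. They had been named as markers of these cells from the same data, so tests of them here and below are no independent support. Ciita, also in the dendritic list, was already counted in the MHC-II list above. Flt3, the growth factor receptor of dendritic precursors, was seen in 3 cells of tumor 2 and 10 of tumor 4 (4 and 13 UMIs) against 3 and 1 UMIs in their 2124 and 2988 other myeloid cells (adjusted p = 4.03e-08). Mgl2, a lectin of cDC2 and macrophages, held 72.4 and 118 CPM against 0.851 and 1.51 CPM (6.44 ± 0.46, adjusted p = 3.88e-41). Cd209a, a lectin of cDC2, had 18 and 12 UMIs in members and 0 in the other myeloid cells of these tumors.

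Rare dendritic subsets rested on few cells. Xcr1 had 1 UMI in tumor 2 and 18 UMIs in 9 cells of tumor 4, with 0 in their other myeloid cells. Clec9a, a cDC1 receptor for dead cells, had 3 UMIs in 1 cell of tumor 2 and 11 UMIs in 7 cells of tumor 4, and 0 and 6 UMIs in other myeloid cells (adjusted p = 0.000124). Ccr7, which guides dendritic cells to lymph nodes, had 8 UMIs in 1 cell of tumor 2 and 16 UMIs in 2 cells of tumor 4, and 0 in the myeloid and dendritic members of the other 7 mice. Ccl17, a chemokine of migratory dendritic cells, had 4 UMIs in 2 cells of tumor 2 and 66 UMIs in 9 cells of tumor 4. It was also seen in members of controls 1, 3 and 4, with 8, 1 and 2 UMIs.

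Among monocyte genes, Ccr2, the receptor that brings monocytes out of the marrow, held 266 and 98.9 CPM in members of tumors 2 and 4 and 2.98 and 1.14 CPM in other myeloid cells (log2 difference 6.51 ± 0.45, adjusted p = 1.15e-42). Plac8, a monocyte gene, held 688 and 155 CPM against 9.36 and 3.97 CPM (5.79 ± 0.42, adjusted p = 8.6e-40), and had 0 UMIs in the members of 6 of the other 7 mice. Of the 10 microglia genes 0 passed with edgeR, DESeq2 or limma voom, 3 had an unadjusted p under 0.05, and their median was -0.55 (P2ry12 -0.50, Tmem119 -0.60). Of 10 border macrophage genes, Clec12a (1.72) and F13a1 (2.11) rose, and neither passed with DESeq2.

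**Figure D4:**
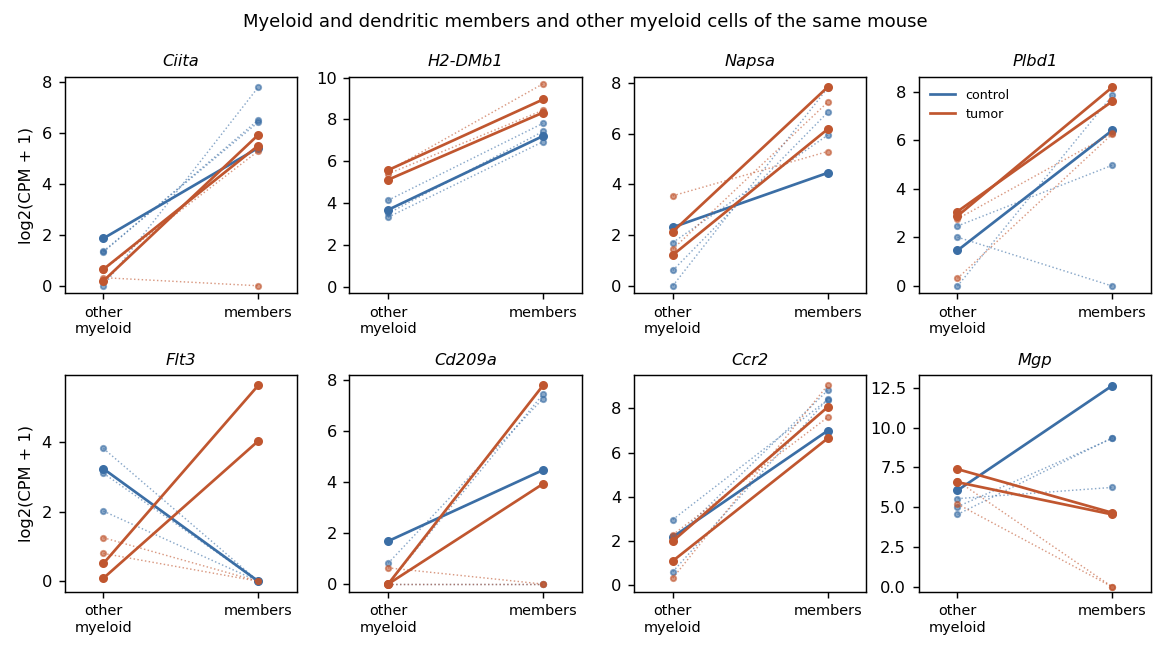
Summed level, log2(CPM + 1) on each vertical axis, of 8 genes in other myeloid cells and in myeloid and dendritic members of the same mouse, each line 1 mouse, solid for control 2 and tumors 2 and 4, which entered the fit, and dotted for the rest. H2-DMb1 is higher in members of all mice shown but 1, and Mgp is higher in members of the controls.

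Some genes of signals to T cells rose in tumor members. Of 19 chemokines and receptors tested, 9 were higher in tumor members and 0 lower, and DESeq2 called 3 higher. Ccl5, which draws T cells, held 5612 and 445 CPM in members of tumors 2 and 4 against 79.4 and 197 CPM (log2 difference 3.71 ± 0.37, adjusted p = 4.98e-20), but 465 UMIs of tumor 2 came from 3 cells, and without members carrying any B gene the difference was 0.52 and did not pass. Cxcl9, a chemokine induced by interferon gamma, rose by 2.84 and Cxcl16 by 1.34. Il1b, an inflammatory cytokine, held 664 and 711 CPM against 54.9 and 192 CPM (2.75 ± 0.35, adjusted p = 5.01e-12). Among 11 genes of inhibition and tolerance, Cd274, which encodes the checkpoint ligand PD-L1, rose by 1.77 ± 0.52 (adjusted p = 0.0343) from 2 and 23 UMIs, and the arginine-degrading enzyme Arg1 by 2.66 ± 0.41 (adjusted p = 3.27e-08), seen in members of tumor 4 alone. Neither passed with DESeq2. Of 6 co-stimulation genes 0 passed with edgeR or DESeq2, 3 with limma voom, and 4 had an unadjusted p under 0.05 (Cd86 0.86, Cd40 1.28, Cd80 -0.52). Of 22 interferon response genes 0 passed with edgeR or DESeq2, 4 with limma voom, and 3 had an unadjusted p under 0.05. Csf2rb, the shared receptor chain for GM-CSF, held 181 and 47.1 CPM against 62.7 and 12.4 CPM (1.85 ± 0.40, adjusted p = 0.000464), and its partner Csf2ra 109 and 185 CPM against 88 and 80.9 CPM (1.00 ± 0.39, adjusted p = 0.229). Csf2rb did not pass with DESeq2.

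Genes of other cells were lower in the tumor members. Hemoglobin genes fell in 4 of 5 tests of the red cell list, S100a8 and S100a9 of neutrophils had log2 differences of -4.48 and -4.30, and the tumor genes Dlk1 and Igf2 of -1.67 and -1.40. With DESeq2 2 of the red cell genes passed, and none of these neutrophil or tumor genes. Dlk1 held 145 and 864 CPM in members of tumors 2 and 4 and 633 and 2539 CPM in their other myeloid cells. Ciita, Napsa, Plbd1 and Ccr2 passed under each of 11 alternatives, but no fit could leave out tumor 2 or tumor 4. Without control 2 the counts were 252 higher and 165 lower, and with DESeq2 60 and 5.

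In controls the same comparison rested on control 2, the only control with at least 10 such members, so it describes 17 members of 1 mouse with a spread borrowed from the tumors. There 145 genes were higher (1.03%) and 9 lower (0.0641%), 1.1% in all. H2-DMa held 283 CPM in members and 26 CPM in other myeloid cells (log2 difference 3.40 ± 0.57, adjusted p = 1.01e-06) and H2-DMb1 147 and 11.9 CPM (3.58 ± 0.70, adjusted p = 7.3e-05). Ciita, at 4 UMIs, gave 3.93 ± 1.58 (adjusted p = 0.416). Monocyte genes rose in 5 of 8, among them Ccr2 by 5.10 and Plac8 by 3.90, border macrophage genes in 3 of 10 (Ms4a7 4.52, Mrc1 3.24, Clec12a 5.47) and dendritic genes in 1 of 6 (Plbd1 5.50). The microglia genes P2ry12 and Gpr34 fell by 2.59 and 2.68. Members needed no myeloid gene, unlike the other myeloid cells, and the part of this in such differences, here or in tumors, was not tested. With DESeq2 neither microglia gene passed, nor did Mrc1 or Clec12a, and the monocyte calls and Plbd1 held. In controls 1, 3 and 4, outside the fit, Ccr2 held 449, 334 and 343 CPM in members and 3.03, 6.81 and 0.521 CPM in other myeloid cells, and was higher in members each time. With the minimum lowered to 5 members, a choice made after seeing the data, all 4 controls entered and 240 genes were higher and 179 lower, and H2-DMa, H2-DMb1 and Ccr2 passed there too. Over 8 alternatives their log2 differences were 2.82 to 3.52, 3.19 to 3.61 and 5.09 to 5.94. Among the genes with the smallest p in control 2, Prg4, a lubricating protein of connective tissue, had 64 UMIs in 4 members, and Mgp, a matrix protein, 605 UMIs in 6 members of control 2. Ccn3, Nbl1, Rspo3 and Islr were also among these genes, and which cells carried them was not tested.

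The test of the difference between these contrasts passed for 3 genes in the tumor direction (0.0214%) and 84 in the control direction (0.599%). Its control side is control 2 alone, so the spread between controls did not enter, and the values describe that mouse against tumors 2 and 4. No MHC-II loading gene passed. The contrasts differed by -0.19 ± 0.73 for H2-DMb1, -1.59 ± 0.64 for H2-DMa and 2.87 ± 1.51 for Ciita (adjusted p = 1, 0.604 and 1). For Ccr2 the difference was 1.41 ± 0.98 (adjusted p = 1) and for P2ry12 2.10 ± 0.82 (adjusted p = 0.552). The lysozyme gene Lyz2 held 1512 CPM in members and 98.6 CPM in other myeloid cells of control 2, and 4465 and 4469 CPM against 5359 and 2593 CPM in tumors 2 and 4, a difference of -3.57 ± 0.46 (adjusted p = 2.83e-11). Its level was high in members of both groups and in the other myeloid cells of tumors. Ms4a7 (-4.15 ± 0.91, adjusted p = 0.00136), Bst2 (-2.66 ± 0.62, adjusted p = 0.00459) and Ifitm3 (-2.14 ± 0.56, adjusted p = 0.0225) showed the same arrangement, with 241 and 142 CPM of Ms4a7 in other myeloid cells of tumors 2 and 4 and 3.96 CPM in those of control 2. Flt3 passed toward tumors (adjusted p = 0.0107), but its 0 UMIs in control 2 allow up to 31.5 CPM, more than the 15.3 CPM of tumor 4 and less than the 48.3 CPM of tumor 2. With DESeq2 Lyz2 passed, and Ms4a7, Bst2, Ifitm3 and Flt3 did not.

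Between groups, the myeloid and dendritic members of tumors 2 and 4 were compared with those of the 4 controls. Higher in tumors were the 6 genes tested of the 15 in the MHC-II loading list. Most tested lipid and phagocyte genes and single inflammatory genes such as Il1b were higher too. The summed level of the 4 MHC-II genes that chose the members overlapped. Because the rule set a minimum for that level, it is not a contrast to the genes higher in tumors. The regulator Ciita was not among the genes tested between groups. Its CPM in members of tumors 2 and 4, given above, lay within the range of the controls. Of 964 genes tested 371 were higher in tumors (38.5%) and 86 lower (8.92%), 47.4% in all, and the median over all genes was 0.96 on the log2 scale, against which each value is to be read. With median-of-ratios size factors the counts were 291 and 125 and the median 0.62, and with DESeq2, which differs in model and scaling, 109 and 159 and 0.10. With a minimum of 4 members, which brings in tumors 3 and 5 and was chosen after seeing the data, 59 were higher and 28 lower of 426 genes, and 82 of the 226 earlier calls tested there were called. A sum over members mixes their cell types, and a change of mixture cannot be told apart from a change within a cell. Control members carried the neuron RNA and tumor members the tumor cell RNA given above. The median mitochondrial share of these members was 8.99%, 11.4%, 7.95% and 7.15% in controls and 6.18% and 2.39% in tumors 2 and 4. The part of these in the results was not tested. At a mitochondrial limit of 10%, 335 genes were higher and 35 lower of 597, with a median of 1.48.

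All 6 tested genes of the MHC-II loading list were higher in tumors and 6 of 6 of MHC-I presentation, with medians of 2.22 and 1.84, against 38.5% higher and a median of 0.96 over all genes, and DESeq2 called 3 and 1 of them. The 6 of the loading list were Ctss, Ctsb, Lgmn, Ifi30, H2-DMa and H2-DMb1. Ctsb rose by 1.40, 0.44 above the median gene, and kept its call under 8 of 17 alternatives. Ctss, the protease that trims the invariant chain, held 673, 934, 1124 and 1228 CPM in controls and 3355 and 4335 CPM in tumors 2 and 4, and 4385 and 5293 CPM in tumors 3 and 5, which had 4 members each and were not in the test. The groups did not overlap, and the difference was 2.77 ± 0.43 (adjusted p = 0.000253), or 1.81 above the median gene. H2-DMa held 149.6, 283, 486 and 314 CPM against 664 and 573 CPM (1.74 ± 0.50, adjusted p = 0.00968), and H2-DMb1 224, 147, 122 and 171 CPM against 495 and 320.2 CPM (2.12 ± 0.47, adjusted p = 0.00193). These were 0.78 and 1.16 above the median gene, and neither passed with DESeq2. B2m, the light chain of MHC-I, held 1197, 1113, 942 and 685 CPM against 1653 and 1752 CPM (1.64 ± 0.42, adjusted p = 0.00448), 0.68 above the median gene. H2-K1, a heavy chain, held 673, 546, 577 and 571 CPM against 700.0 and 1394 CPM and did not pass without tumor 4. In other myeloid cells B2m held 315 to 563 CPM in controls and 1204 to 2367 CPM in tumors, H2-DMa 26 to 34.9 and 106 to 195 CPM, H2-DMb1 9.08 to 16.7 and 33.9 to 63.4 CPM and H2-K1 51.6 to 165 and 264 to 829 CPM.

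Il1b, Cebpb, Spp1 and Apoe were among the genes higher in tumors with the smallest p. Il1b had 0, 0, 0 and 1 UMIs in the control members and 664 and 711 CPM in tumors 2 and 4, from 55 and 604 UMIs (adjusted p = 3.5e-05). Tumors 3 and 5, outside the test, held 5077 and 1815 CPM, and the single member of tumor 1 held 1 UMI. Spp1, which encodes osteopontin, held 74.8, 10.5, 60.8 and 85.7 CPM against 748 and 1008 CPM (log2 difference 5.08 ± 0.62, adjusted p = 5.2e-05). Cebpb, a transcription factor of inflammatory myeloid cells, held 74.8, 52.5, 30.4 and 57.1 CPM against 772 and 722 CPM (4.60 ± 0.54, adjusted p = 5.2e-05). Apoe, the brain's main lipid carrier, held 13989, 5963, 13064 and 9622 CPM against 26538 and 56861 CPM (2.95 ± 0.45, adjusted p = 0.000253). None of these overlapped between the groups tested. Of the lipid and phagocyte list 7 of 8 rose, of complement 3 of 3, of early response genes such as Fos 7 of 7, and of the interferon response 3 of 4, against 38.5% of all genes. DESeq2 called 5, 3, 3 and 0 of these. Other myeloid cells of tumors 2 and 4 held Spp1 at 1757 and 1399.9 CPM and Cebpb at 828 and 730.1 CPM, against at most 37.4 and 43.9 CPM in controls, so both genes were higher in tumors in either cell set. Between members and other myeloid cells of these tumors Spp1 gave -0.76 ± 0.30 (adjusted p = 0.226).

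**Figure D5:**
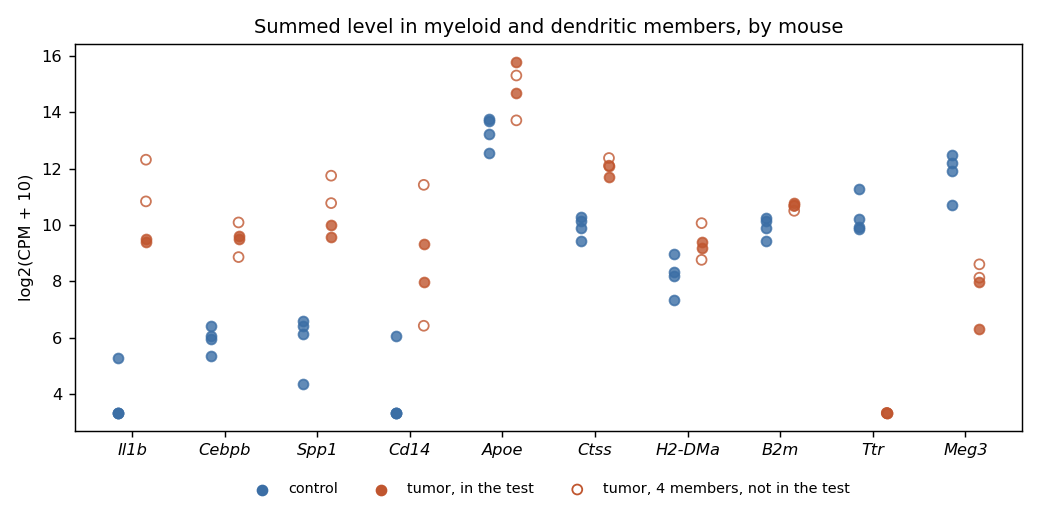
Summed level, log2(CPM + 10), of 10 genes in the myeloid and dendritic members of each mouse, blue controls, filled red tumors 2 and 4, open red tumors 3 and 5. Il1b, Cebpb, Spp1 and Ctss sit higher in each tumor shown, and Ttr and Meg3 lower.

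Among genes lower in tumors were those of neurons and choroid plexus. Ttr, the thyroid hormone carrier made by choroid plexus, held 972, 2488, 911 and 1171 CPM in control members and 0 in those of tumors 2 to 5. Meg3, a neuronal RNA, held 4638, 5648, 1641 and 3854 CPM against 241 and 68.3 CPM (fell by 4.06 ± 0.69, adjusted p = 0.000361). In other myeloid cells Meg3 held 6382 to 8940.1 CPM in controls and 104 to 1569 CPM in tumors. All 5 tested neuron genes were lower. The tumor genes H19, Dlk1 and Igf2 were higher, with H19 at 0 UMIs in all controls and 326 and 225 CPM in tumors 2 and 4, below the 602 and 552 CPM of their other myeloid cells. Xist had UMIs in the members of controls 1 and 2 and tumors 3 and 5 and Ddx3y in those of controls 3 and 4 and tumors 2 and 4, so both tumors tested were Ddx3y-positive. Without tumor 4 only tumor 2 was left as a tumor, beside the same 4 controls. There 418 of 419 of the earlier calls kept their direction, in a fit whose samples were all in the main fit too. Ccl12 reversed there, from 2.53 to -2.28.

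The 45 B-lineage members carried genes of B cells. They numbered 1, 8, 8 and 2 in controls and 0, 7, 4, 8 and 7 in tumors, so tumor 4 gave no more than control 2. Their 4 MHC-II genes summed to 7330.5, 7476, 8101 and 16573 CPM in controls and 7554, 28853, 7705 and 6022 CPM in tumors 2 to 5. Of 10 B cell genes outside the rule, 2 or more were carried by 41 of the 45. The light chain gene Igkc had 2, 50, 94 and 8 UMIs in controls and 52, 85, 46 and 55 UMIs in tumors 2 to 5, in 37 of the 45 cells, and 5 UMIs in 1 of the 233 other members. Ighd, which marks naive B cells, had 0, 13, 10 and 4 UMIs in controls and 11, 13, 6 and 9 UMIs in tumors 2 to 5. Neither 2 precursor genes (Vpreb1, Rag1 and others) nor 2 plasma cell genes were found in any of the 45, but single genes of these lists were: Vpreb3, a gene of immature B stages, in 11 and Mzb1, a gene of antibody secretion, in 15. Xcr1 and Cd209a had 0 UMIs there. Of the B-lineage members, 16 fell in a B cell-like cluster of 17 control cells that also carried neuron and oligodendrocyte RNA, and 15 in a B cell-like cluster of 15 tumor cells. The others fell outside these, among them 6 in the cluster led by Tnnt3, Ccn1 and Cldn10, and tumor 4 gave 1 cell to the B cell-like clusters.

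Stem cell genes were found in members and in other barcodes. Genes of hematopoietic stem and progenitor cells (HSPCs) were carried, 2 or more of 8, by 20 of the 233 myeloid and dendritic members (8.58%), by 5.51% of other myeloid cells and by 7.25% of barcodes with neuron genes. Kit, the stem cell factor receptor, was detected in 10 of all 278 members and Ly6a, which encodes Sca-1, in 53. Both were found in 3 members, 1 of control 4 and 2 of tumor 2. In other myeloid cells Ly6a stood at 10.6 to 19.3 CPM in controls and 29.3 to 221 CPM in tumors, and Kit at 14.1 to 21.9 and 2.48 to 27.4 CPM.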

How the data were processed

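Single-cell RNA was captured from brain or tumor tissue in 9 libraries with the 10x Genomics 5' kit. The authors deposited matrices of raw UMI counts per gene and barcode, made with Cell Ranger (6.1.2 in the matrix headers, 7 in the submitters' processing notes, which also name Scanpy 1.8.2) on mm10. Control 4 had 80865 barcode names for 80887 matrix columns and 32287 feature names, so its member barcodes were left out of the check of shared names, and its 32285 mouse genes followed the order of the other libraries. Deposited totals were 14967680 to 178086164 UMIs per library.

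Members were found with the rule given above. Counts were summed per mouse and cell set. These sums entered edgeR 4.0.16 in R 4.3.3 (glmQLFit and glmQLFTest, TMM scaling, filterByExpr, Benjamini-Hochberg adjustment over all genes tested, threshold 0.05). Adjusted p-values, log2 differences and their standard errors come from this fit unless another tool is named. Tumors were compared with controls over mice with at least 5 myeloid and dendritic members, because fewer than 2 controls had 10. Members and other myeloid cells were compared over mice with at least 10 members, with the mouse as a block, which left 1 residual degree of freedom. DESeq2 1.42.0 and limma 3.58.1 voom were alternatives. On simulated counts with log2 changes of 3, edgeR recovered 69% of changed genes between groups (1.43% false calls, 1126 genes) and 26% between cell sets (1.89% false calls, 13562 genes). The simulation used 1 dispersion of 0.2 for all genes and 1 mean profile for all libraries. It is simpler than the data, so these rates do not carry over to the results. Marker shares were compared with two-sided exact permutation tests over mice. Members were clustered with Scanpy 1.11.5, and doublets were scored but not removed. A floor of 3 UMIs was used for sets at 0, and intervals and floors cover counting error only. Between groups the p-values measure the spread between these samples. Those of members against other myeloid cells come from a fit with 1 residual degree of freedom. They rest mainly on a spread shared over genes, so they do not measure how 1 gene varied between mice.

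The members and gene lists were chosen with earlier results of these data known. Genes named were those of the lists and, in each comparison, the 15 with the smallest p in each direction that passed and kept their direction with each mouse left out at a fixed dispersion, where the contrast could still be formed (control 2 could not be left out of the contrasts that need a control). Leading genes of clusters were named after their values were seen. Replicate numbers were not used to pair the samples, except in the replicate block given below.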

Additional observations from a re-analysis of the deposited data

Results flagged for a closer look

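In 5 of 18 groups of 4 or 5 mice examined, 1 mouse lay far from the others. Chance gives about 1 in 20 groups for independent values, but these were not: all come from the genes that chose the members, and 3 are the same excess of members in tumor 4 over different denominators, so they are descriptions. Tumor 4 stood apart in members as a share of kept barcodes (1.72%) and in myeloid and dendritic members as a share of kept barcodes (1.64%). It also stood apart in their share of themselves and other myeloid cells together (5.20%) and in the summed MHC-II level of its other myeloid cells (194 CPM). Control 2 stood apart by the low summed MHC-II level of its myeloid and dendritic members (7989 CPM).

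The difference between members and other myeloid cells itself differed between tumors and control 2 for 3 genes toward tumors and 84 toward the control, in a fit without a second control mouse. Toward tumors these were Gda (adjusted p = 0.000326, edgeR), Flt3 (adjusted p = 0.0107) and Ramp3 (adjusted p = 0.0461), and Ramp3 rested on 11 UMIs in 2 cells of tumor 2 and 2 UMIs in tumor 4. Toward the control, those with the smallest p included Mgp (adjusted p = 2.18e-36), Mia (9.52e-13), Rspo3 (7.84e-09), Nbl1 (8.67e-09), Islr, Igfbp5 and Col1a1 (1.31e-08 each), Ecrg4 (2.6e-07), F3 and Bmp4 (2.93e-07 each), Cald1 (1.22e-06) and Gas1 (1.67e-06). Lyz2 (2.83e-11), Slc38a2 (5.00e-08) and Cdkn1c (4.85e-07) passed as well. Mgp held 74.8, 6351, 638 and 657 CPM in the members of controls 1 to 4 and 0, 24.1, 0, 22.4 and 0 CPM in those of tumors 1 to 5, so control 2 was the highest. Control 1's value is 1 UMI, and the tumors at 0 allow up to 2812, 115 and 227 CPM, so these cannot be ordered. In other myeloid cells it held 22.4 to 65.6 CPM in controls and 35.8 to 167 CPM in tumors.

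The added luciferase sequence, carried by the fusion allele, had 47 UMIs in the myeloid and dendritic members of tumor 4 (55.3 CPM), 2 UMIs in those of tumor 2 and 0 UMIs in those of the 4 controls and the other tumors. Other myeloid cells of tumor 4 held 184 CPM and those of controls 0.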

How the results depend on the processing

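Between groups, 371 genes were higher and 86 lower. DESeq2 gave 109 and 159, no filter on low counts 571 and 448, and a minimum of 4 members, chosen after seeing the data, 59 and 28. Lower genes numbered 30 with at least 20 UMIs, 57 without members carrying any B gene and 35 at a mitochondrial limit of 10%. Leaving out 1 mouse gave 206 to 424 higher and 51 to 107 lower, and Ccl12 ranged from -2.28, reversed without tumor 4, to 3.37. A replicate block gave 157 and 73. Same-numbered samples correlated at -0.0691 and -0.0327, but with only tumors 2 and 4 this check cannot decide whether the numbers pair samples. Members against other myeloid cells gave 215 and 79 in tumors, with DESeq2 60 and 5, voom 690 and 137, and 252 and 165 without control 2. Lower genes there numbered 140 with median-of-ratios size factors, 38 without any B gene, 45 at the 10% limit and 129 with a minimum of 4. In control 2, 145 and 9 became 84 and 2 with DESeq2, 471 and 18 with voom, and 240 and 179 with a minimum of 5. There 15 were lower with median-of-ratios size factors and 373 with a minimum of 4. The difference of 3 and 84 became 1 and 35 with DESeq2 and 10 and 172 with voom, with 17 and 13 toward tumors at minimums of 5 and 4. The causes were not tested. Under 12 alternatives 0 of 21 marker lists passed, in designs too small to pass or nearly so, which says nothing of stability, and for the cycling list, share carrying it, tumor minus control, reversed to -23.0 percentage points with at least 1 gene. Members numbered 278, 163 among 5000 barcodes and 153 when thinned, and tumor minus control in the mean share ranged from -0.0345 to 0.387 percentage points without 1 mouse. Of 77 named genes between groups, 1092 of 1211 alternative values kept direction and call, and of 77 in tumor members 747 of 838. A minimum of 20 members, leaving out tumor 2 or 4 against other myeloid cells, and the 20 UMI and 10% settings for control 2 and the difference could not be fitted. At the depth of the smallest sum, tumor 1, a gene at 0 UMIs may reach 2812 CPM.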
